A study of Danio rerio with 9 samples.

Results

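The distal end of zebrafish chromosome 4, from 65 Mb to the last peak at 78077905 bp in the build GRCz11, was examined in ATAC-seq peak lists of spermatozoa. ATAC-seq marks open chromatin by the sites where the Tn5 transposase inserts sequencing adapters. The members are all peaks on chromosome 4 that start at 65 Mb or later, and peaks of different libraries that share at least 1 bp were merged into regions. The distal end held 2383 of the 253847 peaks of the series and 954 of its 126838 merged regions. The stretch from 25 to 65 Mb of the same chromosome, with 12454 peaks and 4239 regions, served as background. Zebrafish males had been sampled 7 days after a cardiac cryoinjury, in which part of the heart is damaged by freezing (5 libraries, called injured), or without injury (4 libraries, called control). The labels name no strain, age or batch and do not tie a library to a single male, so the p-values measure the spread between libraries, which may be technical. The lists carry positions and a score of unstated scale but no reads, so depth is unknown, and a site with no peak is a site not detected.

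The long arm of chromosome 4 is known as a late-replicating, heterochromatin-like stretch full of repeats, with large families of zinc finger and NLR immune genes and of small RNA genes. Its far end is known for a ribosomal DNA unit used in oocytes and, in wild strains, for the locus linked to sex, which common laboratory strains have lost. Zebrafish sperm packages its DNA with histones rather than protamines. No gene annotation or genome sequence of GRCz11 was used here, so genes at the regions below are not named, no sequences are printed, and the starts of sperm or blood marker genes were not checked for peaks.

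Peaks were sparser at the distal end than in the 25 to 65 Mb background in every library. The injured libraries 1 to 5 had 21.0, 13.5, 11.0, 23.6 and 14.9 peaks per Mb past 65 Mb, against 36.2, 26.6, 20.5, 38.9 and 27.98 in the background. The control libraries 1 to 4 had 23.2, 26.8, 18.96 and 29.4 peaks per Mb past 65 Mb, against 42.1, 40.3, 31.95 and 46.98. The ratio of the densities lay between 0.506 (injured library 2) and 0.664 (control library 2), so that the libraries differed far less in this ratio than in the densities themselves. On the log2 scale the mean was -0.80 ± 0.12 (SD, n = 9), below 0 in 9 of 9 libraries (exact sign-flip permutation test over libraries, two-sided, p = 0.00391, the smallest this test can give; adjusted p = 0.00781 over 4 values compared in this way). The boundary at 65 Mb was proposed with earlier results of these data known, so this test may not be independent of that choice.

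Taken whole, the distal end was not a sparse part of the genome. Against chromosomes 1 to 25 without chromosome 4, its density was 0.843 times as high in injured library 2 and 1.02 to 1.64 times as high in the other libraries. The mean log2 ratio was 0.22 (exact sign-flip permutation p = 0.0391), opposite in sign to that against the background segment. This did not hold for all parts of the distal end. Past 72 Mb, a place chosen after the data had been seen, density was lower than on those chromosomes in every library. It was 5.43 to 18.8 peaks per Mb there, against 9.58 to 27.9.

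Distal peaks were also scored lower than those of the background. A peak's score rank percentile is its place in its own list, where 0 is the best scored. The median percentile past 65 Mb was between 26.8 (injured library 3) and 40.8 (control library 3), and from 25 to 65 Mb it was between 21.9 and 31.0. The difference was 8.63 ± 3.22 percentile points (SD, n = 9), to the weaker side in 9 of 9 libraries (exact sign-flip permutation p = 0.00391, adjusted p = 0.00781). On the chromosomes other than 4 the median percentile was 49.6 to 53.8, so distal peaks were better scored than those of the rest of the genome by this description. The very strongest peaks of chromosome 4 lay elsewhere: the highest score past 65 Mb was 1134 to 3213, and that of the background was 23753 to 42222 in the same libraries. Among the 1000 best-scored peaks of a library, 13 to 28 were distal and 103 to 205 lay in the background. The segments differ in size, since a whole list held 264.8 distal and 1383.8 background peaks on average. Of the best 1000 peaks, 17.7 ± 5.12 were distal (SD, n = 9), more than the distal share of a whole list, 0.953% ± 0.173 (SD, n = 9).

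Distal peaks were narrower than background peaks in 8 of 9 libraries. Their median width was 191 to 334 bp, and that of background peaks was 220 to 329.5 bp. The log2 ratio of the medians was -0.12 ± 0.096 (SD, n = 9; exact sign-flip permutation p = 0.0117, adjusted p = 0.0156), a factor of 0.917. Injured library 2 alone had wider distal peaks, 334 bp against 314 bp.

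A somewhat smaller part of the distal peaks recurred in another library. It was 74.0% to 92.6% past 65 Mb and 76.8% to 94.1% in the background, a difference of -3.65 ± 3.43 percentage points (SD, n = 9; exact sign-flip permutation p = 0.0195, adjusted p = 0.0195). The sign was negative in 7 of 9 libraries and positive in injured libraries 2 and 5. When peaks were compared only within 4 bands of score rank, no band passed the threshold, although the difference in the band from percentile 25 to 50 was nearly as large as over all peaks. It was -3.21 percentage points there, negative in 6 of 9 libraries (exact sign-flip permutation p = 0.133), and -1.35 points from percentile 10 to 25 (exact sign-flip permutation p = 0.273). Among the best-scored 10% of a list 98.7% ± 1.67 of distal and 98.9% ± 0.916 of background peaks recurred (SD, n = 9; exact sign-flip permutation p = 0.813), and in the weaker-scored 50% of a list 68.7% ± 11.9 and 68.97% ± 9.06 did (SD, n = 9; exact sign-flip permutation p = 0.895).

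**Figure D1:**
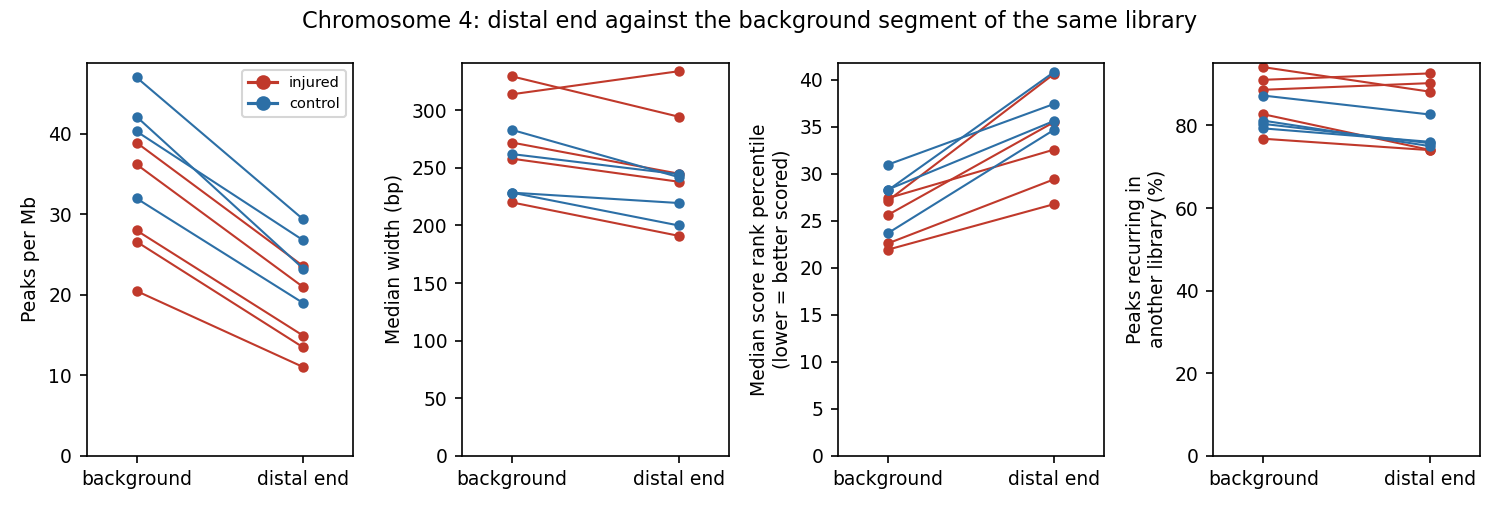
Peak density (peaks per Mb), median peak width (bp), median score rank percentile and percentage of peaks recurring in another library, for the background segment (25 to 65 Mb of chromosome 4) and the distal end (past 65 Mb). Each line joins the 2 values of a library, red for the 5 injured and blue for the 4 control libraries; density fell in 9 of 9 lines and the rank percentile rose in 9 of 9.

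Along the distal end the peaks were not evenly spread. The window from 67 to 68 Mb held the most peaks, 41.2 ± 10.2 (SD, n = 9), and that from 68 to 69 Mb the most regions, 125. Density dropped again past 72 Mb, and the full window with the fewest peaks and regions, from 73 to 74 Mb, held 8.67 ± 3.32 peaks (SD, n = 9) and 24 regions. The last, partial window past 78 Mb held 7 regions. Split at 72 Mb, a place chosen after the windows had been seen, the density was 26.7 ± 8.11 peaks per Mb before and 12.8 ± 4.76 after it (SD, n = 9), lower after it in 9 of 9 libraries. Peaks were absent from all 9 lists over 417 kb from 66032629 to 66449733 and over 242 kb from 73529501 to 73771804, the longest such stretches.

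Peaks thinned across the 65 Mb boundary in 9 of 9 libraries. The window from 64 to 65 Mb held 36.9 ± 10.5 peaks and that from 65 to 66 Mb held 20.4 ± 6.91 (SD, n = 9). The drop was not kept further out, since the window from 67 to 68 Mb held 41.2 ± 10.2 (SD, n = 9). The last region before it (chr4:64989942-64990116) and the first past it (chr4:65023498-65023716) were each detected in 1 library, with scores of 24 and 28.

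**Figure D2:**
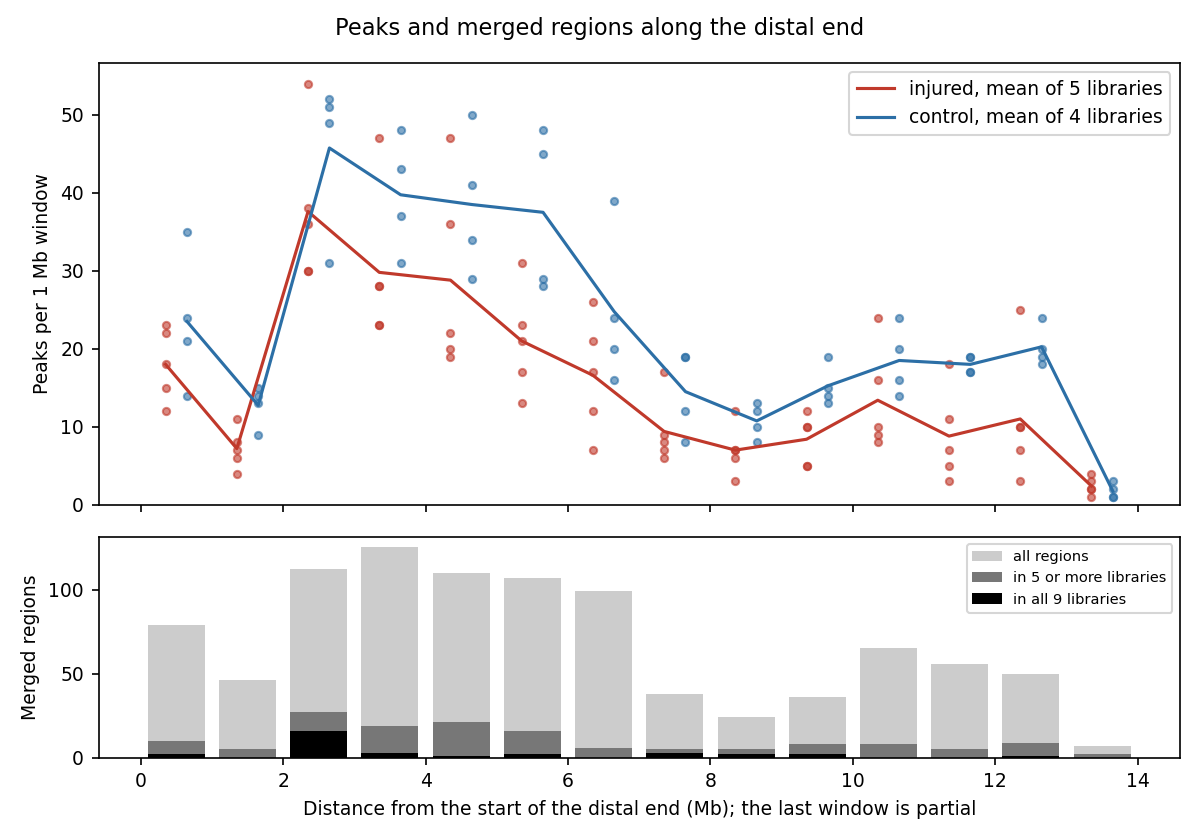
Peaks per 1 Mb window in each library (upper panel; points are libraries, lines are group means, red injured and blue control) and merged regions per window (lower panel; grey all, dark grey in 5 or more libraries, black in all 9), against distance from the 65 Mb boundary in Mb. Peaks crowd between 2 and 6 Mb from the boundary, and 16 of the 32 regions found in all 9 libraries lie in a single window, 2 to 3 Mb from it.

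Most distal regions were seen in few libraries. Of the 954 regions, 496 (52.0%) were detected in 1 library, 146 (15.3%) in 5 or more and 32 (3.35%) in all 9. In the background segment 48.7% were detected in 1 library and 5.85% in all 9, and over all regions of the series these shares were 62.6% and 1.49%. The distal end therefore lay between the background segment and the whole genome in both shares, which are given as a description. The 32 shared regions held 14.3% of the distal peaks. They were 826 bp wide in the median, against 201 bp for regions of 1 library, although merging over more libraries widens a region.

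Libraries differed in how much of the distal set they detected. The injured libraries 1 to 5 had a peak in 265, 171, 138, 301 and 183 of the 954 regions, and the control libraries 1 to 4 in 290, 340, 236 and 378. The lowest was injured library 3, which also had the shortest list of all (15508 peaks), and the highest was control library 4, which had the longest (45277 peaks). Of the 146 regions found in 5 or more libraries, injured library 3 detected 54.8% and control library 4 detected 89.7%. Regions that no other library had made up 7.60% of those in injured library 2 and 26.8% of those in injured library 1.

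**Figure D3:**
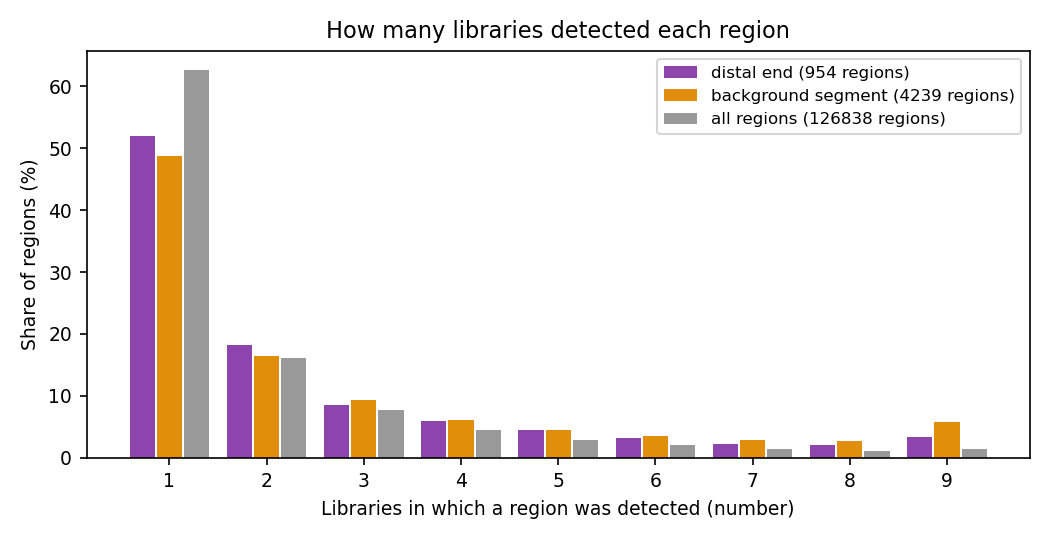
Share of merged regions (%) by the number of libraries in which they were detected, for the distal end (954 regions, purple), the background segment from 25 to 65 Mb (4239, orange) and all regions of the series (126838, grey). At 9 libraries the distal share of 3.35% stands between 1.49% for all regions and 5.85% for the background segment.

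Of the distal regions detected in all 9 libraries, a compact one at chr4:70443152-70443713, 562 bp wide, had the best mean percentile. Its score was 3165, 1633, 1134, 2077 and 1599 in injured libraries 1 to 5 and 2646, 1606, 2407 and 3213 in control libraries 1 to 4. In control library 3 alone another distal region scored higher, chr4:71931658-71933271 with 2795. The region at chr4:70443152-70443713 lay among the best-scored 1.02% of every list, with a mean percentile of 0.455. A nearby region, chr4:70446407-70446675, was detected in all 9 libraries with scores of 114 (injured library 3) to 782 (injured library 1).

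The next by mean percentile was chr4:72857393-72858271, with scores from 495 (injured library 5) to 995 (injured library 4). Its neighbours on both sides, at chr4:72854994-72856949 and chr4:72858503-72860377, were also detected in all 9 libraries. The third of this trio was uneven between libraries of the same group, with scores of 353, 98, 189, 52 and 174 in the injured and 917, 516, 73 and 1435 in the control libraries. The groups overlapped, since the score in control library 3 lay within the range of the injured ones.

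The other regions among the first 6 by mean percentile were chr4:67298009-67298460 (mean percentile 2.46 and scores of 144 to 917), chr4:69152615-69153632 (2.97, scores 94 to 612) and chr4:67287839-67290849 (3.15, scores 131 to 629). Control library 2 gave the highest score of all libraries at each of these 3. The widest distal region, chr4:68687909-68692281, spanned 4373 bp and was also detected in all 9 libraries, with scores between 51 and 421. The first region past 65 Mb found in at least 5 libraries was chr4:65104338-65104783 (6 libraries), and the last was chr4:78037294-78037837 (5 libraries).

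Some regions of the distal end lay in regular ladders, a feature noticed after the positions had been seen. Between chr4:67567445 and 67587287, over 19.8 kb, stood 13 regions detected in 5 or more libraries, 10 of them in all 9, which is 31.3% of all distal regions of that kind. The midpoints of neighbours among these 13 regions were 1545.5 bp apart in the median, and 8 of the 12 spacings lay within 100 bp of it (range 1364.5 to 1879 bp). Left out of this count were chr4:67568143-67568310 (1 library) and chr4:67582244-67582532 (3 libraries), which lay between steps. With them the spacings at these places were 539.5, 825, 960 and 811 bp. Within this stretch the spacings of each library's own peaks had medians of 1523, 1567, 1505, 1561 and 1490 bp in the injured libraries. In the control libraries they were 1373, 1512, 1630 and 1522 bp, of which 1373 bp lay more than 100 bp from 1545.5 bp. These medians follow in part from choosing steps found in 5 or more libraries, so they are no separate support for the ladder. Each library placed 11 to 15 peaks in the ladder, and these covered 30.8% to 50.6% of its length.

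The steps of this ladder were not equally strong. Among those detected in all 9 libraries the last, chr4:67585616-67587287, had the best mean percentile (3.54, scores 104 to 378), and chr4:67574859-67575624 had the worst (29.4, scores 21 to 244). The step at chr4:67581145-67581711 ranged from strong to not detected. It scored 941, 351 and 402 in injured libraries 1, 3 and 5 and 957, 135 and 33 in control libraries 2, 3 and 4, and no peak was called there in injured libraries 2 and 4 or in control library 1. Both groups thus held libraries with and without a peak at that step.

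The injured libraries had 12.6 ± 1.82 peaks in this ladder (SD, n = 5), and the control libraries had 13.8 ± 1.26 (SD, n = 4). Its median score rank percentile was 7.17 ± 2.07 among the injured (SD, n = 5), with 13.9 ± 9.88 among the controls (SD, n = 4). The groups overlapped in both values, for which no test is given because the ladder was picked out after the data were seen. Control libraries 1 and 3 had the weakest ladders, with percentiles of 19.8 and 23.7, and control library 2 had the strongest, at 1.73.

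A finer ladder ran from chr4:69462008 to 69484040, with 17 regions over 22.0 kb, counted whatever the number of libraries. Here 15 of the 16 spacings lay within 40 bp of the median of 1281.5 bp (range of these 15, 1250.5 to 1312 bp). The remaining spacing was 2557.5 bp, or 1279 bp per step if a step without a peak is counted in the gap. The regions were narrow, 162 to 284 bp, and their scores low, 13 to 140. Each was detected in 1 to 7 libraries, and a library had 4 (injured libraries 2 and 3) to 13 (injured library 1) of the 17. The lists thus placed different steps of the same ladder in different libraries, with 7.2 ± 3.70 steps among the injured (SD, n = 5) and 8.5 ± 2.52 among the controls (SD, n = 4).

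Such runs were counted over the genome as at least 4 neighbouring regions, each in 5 or more libraries, with midpoints no more than 5000 bp apart and spacings within 20% of their median. This rule was set after the ladders had been seen. It found 30 runs in all, and the longest was the run of 12 regions from chr4:67567445, followed by runs of 8 on chromosome 7 and on a scaffold. Past 65 Mb 16 of 146 shared regions (11.0%) lay in such runs, 12 of them in the first ladder and 4 in the finer one. Since these ladders prompted the rule, this share is not independent of it. The share was 32 of 823 (3.89%) in the background segment and 80 of 8952 (0.894%) elsewhere on chromosomes 1 to 25. On scaffolds and contigs it was 16 of 1616 (0.990%). These shares also depend on how densely shared regions lie, since a run needs neighbours no more than 5000 bp apart. That density was not matched between the segments. Runs with spacings near that of the finer ladder stood in the background segment, at chr4:61478711-61485572 (1265.5 bp) and chr4:61503694-61509125 (1304 bp). How reads that map to several places were treated is not given in the sources used here, and the part this plays in evenly spaced peaks was not tested.

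**Figure D4:**
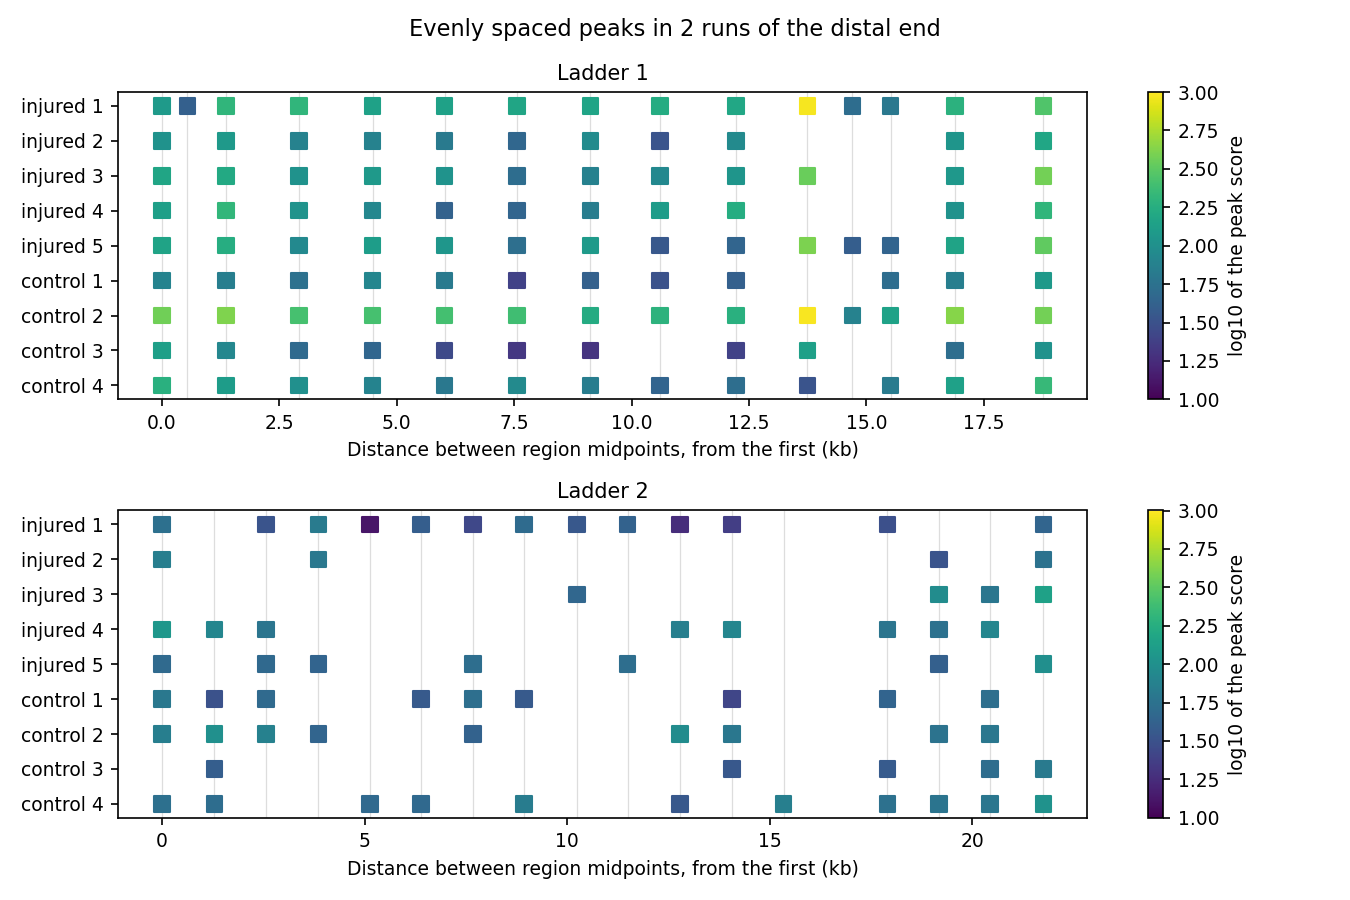
The ladder from 67567445 bp (upper panel) and the finer ladder from 69462008 bp (lower panel): each square is a merged region with a peak in that library, placed at its midpoint's distance in kb from the first region and coloured by log10 of the peak score. In the upper panel 10 of the steps carry a peak in all 9 libraries, whereas in the lower panel each step is filled in 1 to 7 libraries.

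Several strong distal sites were missing from some lists altogether. Among regions in at least 2 libraries with a median percentile of 10 or better, 23 of 51 (45.1%) were detected in all 9 libraries past 65 Mb, compared with 189 of 324 (58.3%) in the background segment and 1159 of 2806 (41.3%) over all regions. The clearest case, picked out after its values were seen, was chr4:71931658-71933271. It scored 623, 1465, 1447 and 836 in injured libraries 1, 2, 4 and 5 and 2795 and 2684 in control libraries 3 and 4, was weak in control library 1 with a score of 32, and had no peak in injured library 3 or control library 2. The high and the missing values both occurred in each group.

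A cluster of uneven sites began at chr4:77553075. At chr4:77557100-77557383 a peak was called in 8 libraries, with scores of 92 to 629, and not in injured library 3. At chr4:77565773-77567429 the control libraries scored 279, 188, 309 and 343 and injured libraries 1, 2 and 5 scored 446, 158 and 145, and no peak was called in injured libraries 3 and 4. At chr4:77554268-77555104 the control libraries scored 109, 66, 83 and 129, and of the injured only library 1 had a peak, with the highest score of all, 213. The last of these is among the regions named by rule below (Fisher's exact p = 0.0476, adjusted p = 0.753), whereas the other 2 were picked out after their values were seen. The remaining regions of the cluster were each detected in 1 or 2 control libraries and in 1 or 2 injured libraries.

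Whether the injury was accompanied by another accessibility of the distal end was asked first of each library as a whole. Distal peaks numbered 274, 176, 144, 308 and 195 in injured libraries 1 to 5. In control libraries 1 to 4 they numbered 304, 350, 248 and 384. The injured mean was 219.4 ± 68.9 (SD, n = 5) and the control mean 321.5 ± 59.0 (SD, n = 4), and the groups overlapped, since injured libraries 1 and 4 had more peaks than control library 3 (exact permutation p = 0.0714; adjusted p = 0.172 over 5 values). As a share of the library's own peaks the distal end held 0.985% ± 0.224 (SD, n = 5) against 0.913% ± 0.0928 (SD, n = 4), a difference within the spread (exact permutation p = 0.587, adjusted p = 0.587). Injured library 4 had the highest share, 1.28%, and injured library 2 the lowest, 0.684%.

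Distal peaks covered 74.8 ± 18.5 kb among the injured (SD, n = 5), compared with 105 ± 23.2 kb among the controls (SD, n = 4; exact permutation p = 0.0794, adjusted p = 0.172). The injured had a median width of 260.5 ± 55.1 bp (SD, n = 5) against 226.5 ± 20.9 bp for the controls (SD, n = 4; exact permutation p = 0.341, adjusted p = 0.427). The log2 density ratio to the background was -0.86 ± 0.10 (SD, n = 5) against -0.72 ± 0.11 (SD, n = 4; exact permutation p = 0.103, adjusted p = 0.172). When every list was held to its 15508 best-scored peaks, the number of peaks in the shortest list, the distal counts averaged 176.6 ± 41.9 (SD, n = 5) against 182.5 ± 21.9 (SD, n = 4; exact permutation p = 0.817, adjusted p = 0.937).

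**Figure D5:**
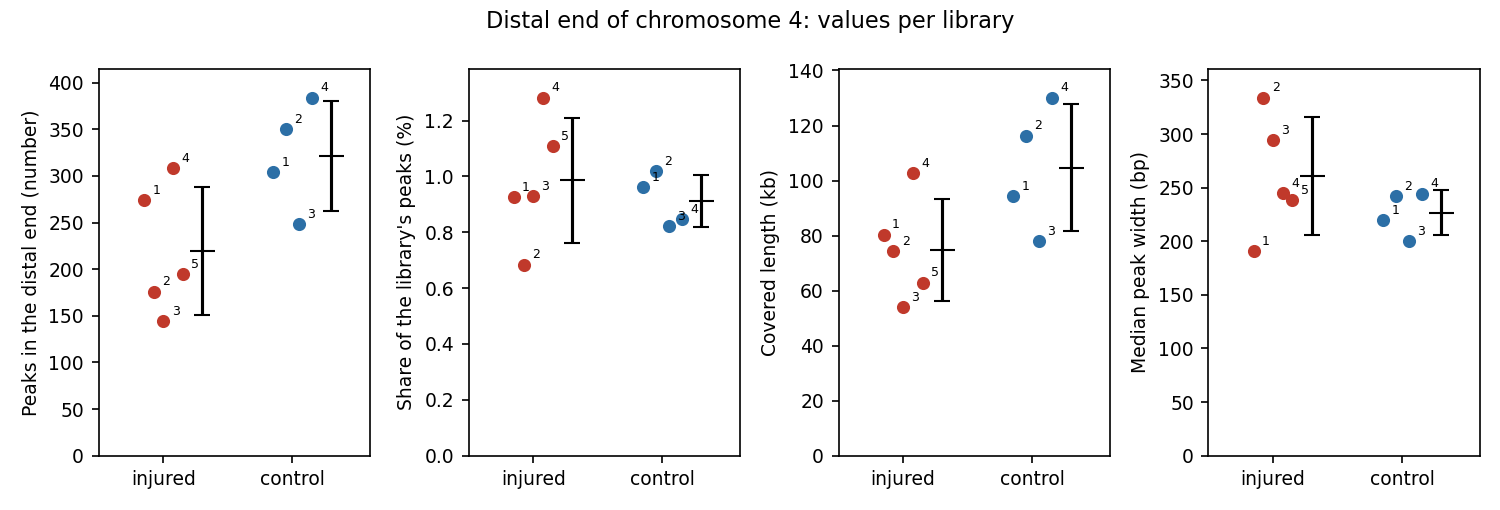
Number of distal peaks, their share of the library's peaks (%), covered length (kb) and median width (bp) in each library; points are libraries marked by replicate number, red injured and blue control, and bars show mean and SD. The groups overlap in all 4 panels.

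The outer part alone, cut at 70 Mb, stood apart more in covered length. Past 70 Mb the injured libraries 1 to 5 had 38.3, 33.3, 17.9, 36.9 and 24.0 kb under peaks, compared with 39.7, 56.2, 39.1 and 62.9 kb in control libraries 1 to 4, with no overlap between the groups. The difference was -19.4 kb (exact permutation p = 0.00794, not adjusted, the smallest possible value). Without control library 4 it was -14.9 kb (exact permutation p = 0.0536). Without any 1 of the other libraries it was -16.3 to -22.8 kb (exact permutation p = 0.0179 to 0.0357, not adjusted). In the better-scored 50% of each list, which leaves the lists unequal in length, it was -11.9 kb (exact permutation p = 0.0238, not adjusted). In the lists of equal length it was -6.19 kb (exact permutation p = 0.135). As a share of the library's peaks the part past 70 Mb held 0.430% ± 0.0881 (SD, n = 5) against 0.456% ± 0.0363 (SD, n = 4; exact permutation p = 0.548). Of the 5 values compared between groups, covered length alone passed there. The number of peaks past 70 Mb differed by -63.25 (exact permutation p = 0.0556), and the groups overlapped in it. The log2 density ratio differed by -0.33 (exact permutation p = 0.0556) and the median width by 17.45 bp (exact permutation p = 0.516). The lists of the controls, 30126 to 45277 peaks, were all longer than those of the injured, 15508 to 29622 peaks, and the part of list length in the covered length cannot be told apart from the groups in the lists as deposited.

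No distal window of 1 Mb passed the test of its share of peaks. By the exact permutation test 0 of 14 passed an unadjusted p below 0.05, where 4.14% of all 1352 windows did, and 0 passed after Benjamini-Hochberg adjustment (lowest adjusted p = 0.965), which the smallest possible p of 0.00794 could not pass for single windows either. Without injured library 2, or without injured library 4, 1 of the 14 windows passed unadjusted. The share over all windows is not given for these settings, so this count is not a result about the distal end. The lists of equal length also gave 0 of 14, where 4.51% of all windows passed. In the window from 76 to 77 Mb the injured libraries 1 to 5 counted 18, 5, 3, 7 and 11 peaks, against 17, 19, 17 and 19 for the controls, which overlapped through injured library 1 (exact permutation p of the share = 0.254, adjusted p = 0.965).

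Single distal regions were more often detected in control libraries, about as in the rest of the genome. The detection rate was higher among the controls in 305 of the 407 distal regions tested, those in 2 to 7 libraries (74.9%, against 76.2% of all 44043 regions), and higher among the injured in 102 (25.1%, against 23.8%). With every list held to equal length these shares were 55.4%, against 61.4%, and 44.6%, against 38.6%. After Benjamini-Hochberg adjustment over all regions, Fisher's exact test called 0 distal regions, where 0% passed (lowest adjusted p = 0.753). The smallest p that 5 against 4 libraries can give is 0.00794, which cannot pass the adjustment unless a large part of all regions reach it, so this 0 says nothing about single regions. Without adjustment, p was below 0.05 for 22 regions (5.41%) detected more often in control libraries, against 4.27% of all regions, and 1 (0.246%) detected more often in injured libraries, against 0.213%. In the lists of equal length these were 11 of 251 (4.38%), against 2.43%, and 1 of 251, against 0.674%. The count of 22 dropped to between 2 and 8 when any 1 library was left out, because fewer patterns of detection can then reach that p. The share over all regions is not given for these settings.

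A pair of distal regions was detected in every control and in no injured library, 0.491% of those tested against 0.35% of all. This count of 2 was 8, 6, 5 and 3 without control libraries 1, 2, 3 and 4, was 4 without injured library 1, 2 or 4, and stayed 2 without injured library 3 or 5. At chr4:65079415-65079806 the control libraries scored 32, 70, 19 and 81, and at chr4:75663716-75664020 they scored 116, 49, 47 and 34 (Fisher's exact p = 0.00794, adjusted p = 0.753 for each). The better-scored 15508 peaks of each list contained both in 3 of 4 control libraries and in 0 injured libraries, so that neither met this condition there, where 0.212% of all regions did. No distal region was in every injured and no control library, where 0.0136% of all regions were, and in the lists of equal length the share of all regions was 0.0346%. Without control library 2 there was 1 such distal region. The shares over all regions are not given for the settings without a library, so those counts are not a result about the distal end.

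The other regions first in order on the control side were chr4:70770595-70771201 and chr4:77845399-77845681, in 4 of 4 control libraries and 1 of 5 injured (Fisher's exact p = 0.0476, adjusted p = 0.753 for each). The first of them scored 110, 69, 236 and 63 in the control libraries and 132 in injured library 2. On the injured side the first was chr4:68280724-68281552, in 5 of 5 injured libraries with scores of 24, 81, 59, 54 and 28 and in control library 2 with 79 (Fisher's exact p = 0.0476, adjusted p = 0.753). The others on that side, chr4:68761993-68762312, chr4:67152593-67152974, chr4:68730844-68731106 and chr4:65102752-65103075, had a peak in 3 of the 5 injured libraries, with scores of 13 to 48, and in 0 of the controls (for each, p = 0.167 by Fisher's exact test, 0.753 adjusted). Many regions tie at these p-values, and ties were ordered by the difference in detection rate and then by the median score percentile.

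Pairs of libraries shared less of the distal end than of the background segment. The Jaccard index, the shared length under peaks as a percentage of the length under peaks in either library, averaged 27.03% past 65 Mb (range 21.0% to 33.2%, 36 pairs) and 34.3% from 25 to 65 Mb (27.6% to 39.2%). Past 65 Mb it was 28.4% for pairs of control libraries, 27.4% for pairs of injured libraries and 26.4% for mixed pairs. In the lists of equal length the order was another, with 33.4% for control, 29.2% for injured and 30.5% for mixed pairs. These means are given as a description, since the pairs share libraries.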

How the data were processed

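Per the labels' protocols, each library came from 100000 spermatozoa sequenced as 100 bp paired-end reads, with 4.6 to 29 M reads retained, not tied to a library. The authors deposited a peak list per library with positions and a score. The build GRCz11 is listed in the submitters' processing notes, with Bowtie2 and MACS2 among the tools (also bedtools, deepTools, Picard, SAMtools, Trim Galore, ChIPseeker, DESeq2, DiffBind), without versions. No source used here gives the Tn5 shift, the handling of duplicate or multiply mapping reads, or the cutoff for peaks. Deposited scores started at 13 and were ranked within a list only. The scores printed for single regions are raw, so their order between libraries can differ from that of the percentiles. At chr4:70446407-70446675 injured library 1 had the highest score, 782, with a percentile of 1.37, but control library 1 had the best percentile, 0.959. Total peaks per list were 15508 to 45277, and no source used here ties them to the depth of a library.

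Computed here (Python 3.11.15, numpy 2.4.6, scipy 1.17.1, pandas 2.3.3): values per library, compared by exact two-sided permutation over 126 assignments (smallest p 0.00794), and comparisons with the background segment by exact sign-flip permutation over 512 sign patterns. Densities used 13.1 and 40 Mb. Regions were compared by Fisher's exact test and 1 Mb windows with at least 18 peaks by permutation, with Benjamini-Hochberg adjustment over the whole genome. Both tests were run on simulated data in which completely changed regions or windows had been planted. These were found without adjustment, which the planting fixed for regions, and none after it, given the smallest p. The run therefore does not measure how well the tests perform. Regions were named by a rule: the 6 best ranked in all libraries, the first 5 per direction by Fisher p (ties by difference in detection rate, then median score percentile), the widest, and the outermost in 5 or more libraries. Members, lists and rules were chosen with earlier results of these data known. The planned comparison of sequence features and the marker starts need a GRCz11 genome and were not run. Alternatives were equal-length lists, the better-scored 50%, other boundaries, backgrounds, overlaps and windows, leaving out libraries, and a replicate block.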

Additional observations from a re-analysis of the deposited data

Results flagged for a closer look

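Injured library 2 stood away from its group in the width of distal relative to background peaks. Its ratio of median widths was 1.06, while the closest other injured library had 0.922, a distance equal to 0.722 of the spread from lowest to highest. In the lists of equal length the ratio was 1.01 beside 0.925, and it no longer stood out. No other value stood out in this way in the 32 sets of values looked at. Chance would produce around 1.6 such cases.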

How the results depend on the processing

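The lower density, weaker ranks and narrower width past 65 Mb than from 25 to 65 Mb kept their direction and stayed past the threshold in equal-length lists, the better-scored 50%, past 70 Mb and without any 1 library. Against chromosomes 1 to 25 without chromosome 4 the log2 density ratio reversed to 0.22 (exact sign-flip permutation p = 0.0391). Those chromosomes held 9.58 to 27.9 peaks per Mb, against 20.5 to 46.98 in the 25 to 65 Mb segment. The lower recurrence also stayed past the threshold in equal-length lists, the better-scored 50%, past 70 Mb and without any 1 library. In equal-length lists it was -4.37 percentage points (exact sign-flip permutation p = 0.00391). It lost its call within bands of score rank, an alternative added after seeing the data. There it was -0.18, -1.35, -3.21 and -0.28 percentage points from best to worst scored, and the cause was not tested. The difference in share, never past the threshold, changed sign in equal-length lists (-0.038 percentage points), past 70 Mb (-0.0266) and without injured library 4 (-0.0017), with a range of -0.0017 to 0.148 when 1 library was left out; the cause was not tested. The covered length passed the threshold past 70 Mb (-19.4 kb) but not past 72 Mb (-11.1 kb, exact permutation p = 0.0556). Peak density past 72 Mb did pass unadjusted. It was 9.94 ± 4.39 peaks per Mb among the injured (SD, n = 5) against 16.3 ± 2.17 among the controls (SD, n = 4; exact permutation p = 0.0476). In equal-length lists it was 7.86 ± 1.96 (SD, n = 5) against 9.21 ± 0.901 (SD, n = 4; exact permutation p = 0.214).

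Replicate numbers are shared between groups. Detection in same-numbered libraries deviated with correlations of -0.0269 to 0.0156, and in differently numbered ones with -0.0181 to 0.02. Detection thus showed no pairing by number, but this check cannot exclude one, and the labels state none. With a replicate block the differences were -96 peaks, 0.0421 percentage points, -26.8 kb, 39.6 bp and -0.13 in the log2 density ratio, and it changed no call, although its smallest p is 0.125.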
